A study of Mus musculus with 3 samples.

Results

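The 10 genes described here encode feedback inhibitors of mitogen-activated protein kinase (MAPK) signalling: the dual-specificity phosphatases Dusp1, Dusp2, Dusp4, Dusp5, Dusp6 and Dusp10, and the Ras-pathway inhibitors Spry1, Spry2, Spred1 and Spred2. They were chosen by name, and all 10 were found, each in a single row, among the 23337 gene symbols measured. RNA came from CD4+ T cells labelled Th1, the interferon-gamma-producing T helper subset, of wild-type C57/Bl6j mice aged 7 weeks. The tumour group held 1 library of cells from B16-F10 tumours, a transplantable mouse melanoma. The lymphoid group held 2 libraries, titled as spleen, whose tissue label lists spleen, lymph nodes and draining lymph nodes. Both groups carried no genetic change and no drug is named. Pooling of animals is not described, nor is it said that the lymphoid libraries are of different mice, so the p-values reflect only how far these libraries differ, possibly for technical reasons.

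In the MAPK cascade, Ras activates RAF kinases, which activate MAP kinase kinases, which switch on the MAP kinases ERK, JNK and p38 by phosphorylating a threonine and a tyrosine. T cell receptor engagement drives this cascade through the adaptor LAT and Ras exchange factors. Dual-specificity phosphatases remove both phosphates from MAP kinases, and many of their genes are themselves induced by MAPK activity. Sprouty proteins damp signalling from receptors to Ras and ERK, and Spred proteins bring the Ras inactivator neurofibromin to the membrane.

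Values are FPKM (fragments counted per kilobase of a transcript, relative to library depth) divided by median-of-ratios factors, which set the typical expressed gene equal between libraries, and are called scaled FPKM. As deposited, the median log2 change of all 10004 tested genes was -0.94. After this scaling it was 0.02. Estimated depth was 3270000 fragments in the tumour library and 11480000 and 15630000 in lymphoid libraries 1 and 2. The tumour library also held more signal in genes that T cells should not use. Rows of 1440 odorant and vomeronasal receptor genes averaged 0.662 scaled FPKM there, against 0.0583 and 0.1005 in lymphoid libraries 1 and 2, and their 90th percentile in the tumour library was 1.12. CD4 T cell markers were all present (7 of 7 genes measured above 1, with a summed level of 567.3 in the tumour library, against 602.0 and 590.6 in the lymphoid libraries), as were 5 of 5 Th1 markers. The defining Th1 cytokine gene Ifng was lower, at 4.53 scaled FPKM in the tumour library, against 12.9 and 12.0 in the lymphoid libraries (log2 change -1.28, limma adjusted p = 0.0115). With the estimated counting error of the tumour library added to limma's squared SE, the adjusted p of a t test was 0.293. Among markers of other cells, the 8 measured macrophage and monocyte genes summed to 8.79 in the tumour library, with 3 above 1 and 2 at 0, against 1.45 and 1.17 in the lymphoid libraries. The CD8 T cell genes Cd8a and Cd8b1 summed to 5.27 in the tumour library, against 0.558 and 0.814 in the lymphoid libraries. Most of that sum was Cd8b1, at 4.77 in the tumour library, while Cd8a was at 0.503, under the receptor 90th percentile. The 7 melanocyte genes summed to 3.35 in the tumour library, with Mlana at 0, against 1.35 and 1.49 in the lymphoid libraries. Sums of B cell, dendritic cell and fibroblast genes were also higher in the tumour library. Those of NK cell genes (15.9, against 23.6 and 20.3) and erythroid genes (0.548, against 1.63 and 1.38) were lower. Within these lists, Klrb1c (13.4, against 23.6 and 20.1) and Hba-a1 (0, against 1.22 and 1.08) were lower in the tumour library. Ncr1 (1.47, against 0 and 0.169), Klra8 (0.993, against 0 and 0) and Alas2 (0.548, against 0.414 and 0.300) were higher there, Klra8 and Alas2 under the receptor 90th percentile. The endothelial sum lay between the lymphoid sums and was mostly Pecam1, at 7.70 in the tumour library, against 9.76 and 8.80 in the lymphoid libraries. The other endothelial genes, Cdh5 (0.777, against 0 and 0.0234) and Kdr (0.565, against 0 and 0.0425), were higher in the tumour library, under the receptor 90th percentile. Neutrophil genes were at 0 throughout. The part of these differences in the results below was not tested. In bulk RNA, fewer cells of a type and less RNA per cell cannot be told apart.

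The dual-specificity phosphatase genes split between the groups. In the tumour library Dusp4, Dusp5 and Dusp10 were higher than in lymphoid cells, Dusp6 was lower, and neither Dusp1, Dusp2 nor any tested Sprouty or Spred gene passed the test. By limma with Benjamini-Hochberg adjustment at 0.05, 3 of 9 tested members were higher, against 14.0% of all tested genes, and 1 was lower, against 6.71%. Spry2 lay under the filter of a mean of 1 scaled FPKM and was not tested, and Dusp4 passed that filter only through its tumour value. Without a test, and on scaled FPKM plus 1, Dusp4, Dusp5 and Dusp10 were at least 2-fold higher than in each lymphoid library (8.7% of tested genes), 0 were 2-fold lower (2.57%), and the lymphoid libraries differed 2-fold at 0 members and at 0.62% of tested genes. At 1.5-fold, 3 members were higher (14.8% of tested genes), 1 was lower (8.0%), and the lymphoid libraries differed at 0 members (3.07%). With 1 residual degree of freedom, the spread comes from the lymphoid pair alone and is taken to hold for the tumour library too. The estimated counting error of the tumour library was then added to limma's squared SE, and p was recomputed by a t test with limma's degrees of freedom. With it, 0 members were called, against 50 of all 9883 genes so tested. By that t test, 3 members were higher and 1 lower at an unadjusted p under 0.05, against 1057 and 308 of those genes.

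**Figure D1:**
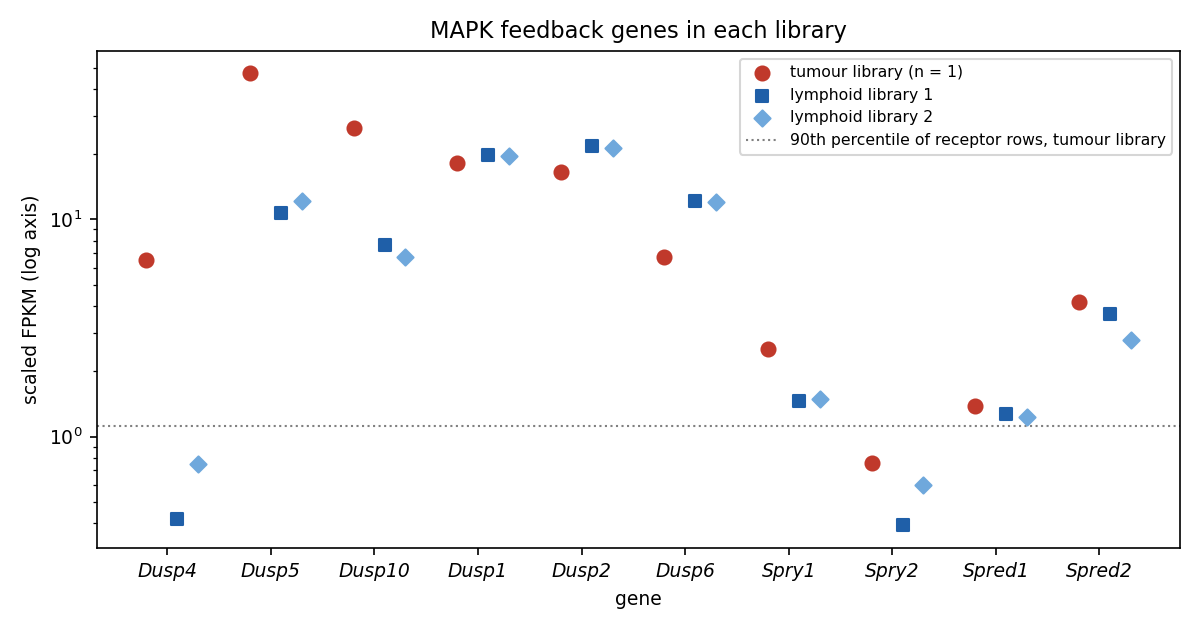
Scaled FPKM of the 10 genes (log axis), with 1 point per library: tumour (circle), lymphoid 1 (square) and lymphoid 2 (diamond). The dotted line marks 1.12 scaled FPKM, the 90th percentile of odorant and vomeronasal receptor rows in the tumour library. The tumour points of Dusp4, Dusp5 and Dusp10 stand well above both lymphoid points, Dusp6 stands below them, and Spry2 lies under the line in every library.

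Dusp5 encodes a nuclear phosphatase that is specific for ERK and holds it in the nucleus. Its gene (ENSMUSG00000034765.6) lies on the plus strand of chromosome 19 from 53529109 to 53542431 (GRCm38). Dusp5 was at 47.1 scaled FPKM in the tumour library, against 10.7 and 12.1 in lymphoid libraries 1 and 2. The tumour value was thus far outside the lymphoid range, at 4.12 times the lymphoid mean of 11.4 ± 0.984 (SD, n = 2). The log2 change of scaled FPKM plus 1, a scale that understates the change of low genes, was 1.95 with SE 0.16 (limma adjusted p = 0.00523). It rested on about 221 tumour fragments, the most of any member. Of all tested genes 3.49% had a larger rise. With counting error added to limma's squared SE, the adjusted p of the t test was 0.0573.

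The promoter of Dusp5 is printed because it alone among the 9 member promoters searched held a CArG box, the motif bound by serum response factor (SRF). SRF is a transcription factor that works with the ERK-phosphorylated ELK proteins. No promoter window was found for Dusp4, so it was not searched. The promoter of Dusp1 is printed beside it because it held the full cAMP response element, the motif of CREB and related factors. Both windows are the 250 bases before the RefSeq start (GRCm38.p6), given 5′ to 3′ on the gene's strand. Dusp5 is at chr19:53528895-53529144 (plus strand) and Dusp1 at chr17:26508473-26508722 (minus strand). Capitals mark the CArG boxes in Dusp5, and every TGACG or its reverse complement CGTCA in Dusp1.
Dusp5: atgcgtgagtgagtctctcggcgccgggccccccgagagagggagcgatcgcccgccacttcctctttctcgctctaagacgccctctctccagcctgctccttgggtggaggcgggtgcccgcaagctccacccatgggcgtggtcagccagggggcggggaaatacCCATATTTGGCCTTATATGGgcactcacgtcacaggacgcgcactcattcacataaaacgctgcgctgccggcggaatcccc
Dusp1: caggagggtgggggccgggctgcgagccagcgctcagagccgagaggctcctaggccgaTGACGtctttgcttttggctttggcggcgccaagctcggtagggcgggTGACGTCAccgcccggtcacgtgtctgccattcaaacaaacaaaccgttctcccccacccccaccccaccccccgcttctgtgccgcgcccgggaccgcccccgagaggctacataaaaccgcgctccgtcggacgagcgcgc

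The CArG boxes of Dusp5 lie side by side, from 82 to 73 and from 72 to 63 bases before the start. Of 32851 mouse promoter windows of the same length, 1.47% held at least 1 CArG box and 0.0183% held at least 2. The element TGACGTCA of Dusp1 lies 143 to 136 bases before its start, a second TGACG lies at 191 to 187, and 1.55% of all windows held the full element. Windows were found for 9 members, all but Dusp4, and 10 motifs were searched on both strands. TGACG occurred in Dusp1, Dusp5 and Spred2 (17.8% of all windows), the GC-rich NF-kB motif (GGGA, any 4 bases, CC) in 6 members (17.6%), and GGAAA (the core bound by NFAT) in 5 (55.6%). GCGNGGGCG (EGR) occurred in Dusp2 (4.70%) and CACGTG in Dusp1 and Dusp2 (6.02%). TGANTCA (AP-1), AAAGGTCA (the NR4A monomer element) and CCGGAAGT (ETS) occurred in none, against 6.75%, 1.34% and 2.88% of all windows. The NF-kB match of Dusp5, at 91 to 82, shares its last base with the first CArG box and contains its GGAAA match. Member windows were richer in GC (56.0% to 70.8%, against a median of 52.4% over all windows) and held 12 to 31 CpG dinucleotides, against a median of 6.0, and the shares were not matched for this composition. The motifs were chosen with the members' values known, a match describes letters only, and binding was not measured.

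Dusp4 encodes an inducible nuclear phosphatase of ERK and other MAP kinases. The gene (ENSMUSG00000031530.6) lies on chromosome 8 from 34807297 to 34819894, on the plus strand. Dusp4 was at 6.48 scaled FPKM in the tumour library, against 0.418 and 0.747 in lymphoid libraries 1 and 2. Its tumour value was 11.1 times the lymphoid mean of 0.582 ± 0.233 (SD, n = 2), the largest ratio of the 10 genes. The log2 change was 2.25 with SE 0.18 (limma adjusted p = 0.00471, and adjusted p = 0.0725 with counting error added), on about 34 tumour fragments. Dusp4 passed the filter only through its tumour value, so it could only have come out higher. Of 783 tested genes that passed in this way, limma called 661 higher. Of the 1440 receptor rows, 5 (0.347%) reached the tumour level of Dusp4, the same number as for Dusp1, Dusp2, Dusp6 and Dusp10. When each library's mean receptor level was subtracted, a step chosen after the data were seen, the ratio of Dusp4 to its lymphoid mean was 11.6. The part of the receptor-row signal of the tumour library in the Dusp4 values was not tested.

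Dusp10 encodes a phosphatase that prefers p38 and JNK over ERK. Its gene (ENSMUSG00000039384.8) lies on the plus strand of chromosome 1 from 184013302 to 184075636. Dusp10 was at 26.4 scaled FPKM in the tumour library, against 7.64 and 6.72 in lymphoid libraries 1 and 2. The 1 tumour value was 3.68 times the lymphoid mean of 7.18 ± 0.651 (SD, n = 2). It lay above both lymphoid values, as did those of 43.7% of all tested genes. The log2 change was 1.75 with SE 0.16 (limma adjusted p = 0.00643, and adjusted p = 0.0725 with counting error added). A gene on the opposite strand, 1700056E22Rik, overlaps Dusp10. It was at 2.31 scaled FPKM in the tumour library, against 3.23 and 4.46 in lymphoid libraries 1 and 2, and was not called (log2 change -0.54, limma adjusted p = 0.151). Its part in the Dusp10 values was not tested. Whether strand was used in counting is not given in the sources used here.

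Dusp6 encodes the cytoplasmic ERK-specific phosphatase that is a classic ERK feedback gene. It lies on the plus strand of chromosome 10 from 99263231 to 99267489 (ENSMUSG00000019960.8). Dusp6 was at 6.72 scaled FPKM in the tumour library, against 12.1 and 12.0 in lymphoid libraries 1 and 2. The lymphoid libraries were nearly equal (12.1 ± 0.107, SD, n = 2), and the tumour value was 0.556 times their mean. The log2 change was -0.76 with SE 0.14 (limma adjusted p = 0.0352), on about 33 tumour fragments. This was the least firm of the calls. Its adjusted p was 0.337 by the t test with counting error added. By limma, the adjusted p of Dusp6 was 0.0520 when only genes with a mean of at least 5 were tested. It was 0.879 by limma after scaling by library totals (log2 change -0.06).

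Dusp1 and Dusp2, inducible nuclear phosphatases, were the most abundant members in both lymphoid libraries. Dusp1, which acts on p38, JNK and ERK, was at 18.3 scaled FPKM in the tumour library, against 19.7 and 19.6 in lymphoid libraries 1 and 2. The log2 change was -0.10 with SE 0.15 (limma adjusted p = 0.656). Dusp2, which is enriched in lymphoid cells, was at 16.5 scaled FPKM in the tumour library, against 21.9 and 21.4 in lymphoid libraries 1 and 2. Its log2 change was -0.37 with SE 0.15 (limma adjusted p = 0.157). A gene on the opposite strand, Ergic1, overlaps Dusp1 and was at 3.82 scaled FPKM in the tumour library, against 4.03 and 3.45 in lymphoid libraries 1 and 2, so its groups overlapped. For Dusp1 and Dusp2, tumour values lay below both lymphoid values, as did those of 40.7% of all tested genes, and 43.7% lay above both.

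The order of the levels differed between the groups. In the tumour library the order was Dusp5, Dusp10, Dusp1, Dusp2, Dusp6, Dusp4, Spred2, Spry1, Spred1 and Spry2. In lymphoid library 1 it was Dusp2, Dusp1, Dusp6, Dusp5, Dusp10, Spred2, Spry1, Spred1, Dusp4 and Spry2. Lymphoid library 2 had the same order except that Dusp5 (12.1 scaled FPKM) stood just ahead of Dusp6 (12.0), so these neighbours did not differ beyond the spread of the lymphoid libraries. Dusp4 and Spry2 likewise overlapped there, at 0.418 and 0.747 for Dusp4 and 0.391 and 0.600 for Spry2. The tumour order has no replicate, and its close neighbours Dusp6 (6.72) and Dusp4 (6.48) cannot be ordered.

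Ratios between members within a library do not depend on the scaling. Dusp5 was at 7.01 times the FPKM of Dusp6 in the tumour library, against 0.884 and 1.01 times in lymphoid libraries 1 and 2. Dusp10 was at 1.44 times the FPKM of Dusp1 in the tumour library, against 0.387 and 0.342 times in the lymphoid libraries. Dusp4, nearly absent beside Dusp6 in lymphoid libraries 1 and 2 (0.0344 and 0.0623 times), was at 0.966 times Dusp6 in the tumour library. These pairs were picked after the values were seen.

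As a share of the summed FPKM of the 10 genes, Dusp5 made up 36.1% in the tumour library, against 13.5% and 15.4% in lymphoid libraries 1 and 2. Together, Dusp4, Dusp5 and Dusp10 made up 61.3% in the tumour library, against 23.7% and 24.9% in the lymphoid libraries. Dusp1, Dusp2 and Dusp6 together made up 31.9% in the tumour library, against 67.8% and 67.4% in the lymphoid libraries. The 4 Sprouty and Spred genes stayed a small part, with 6.79% in the tumour library, against 8.56% and 7.75% in the lymphoid libraries.

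**Figure D2:**
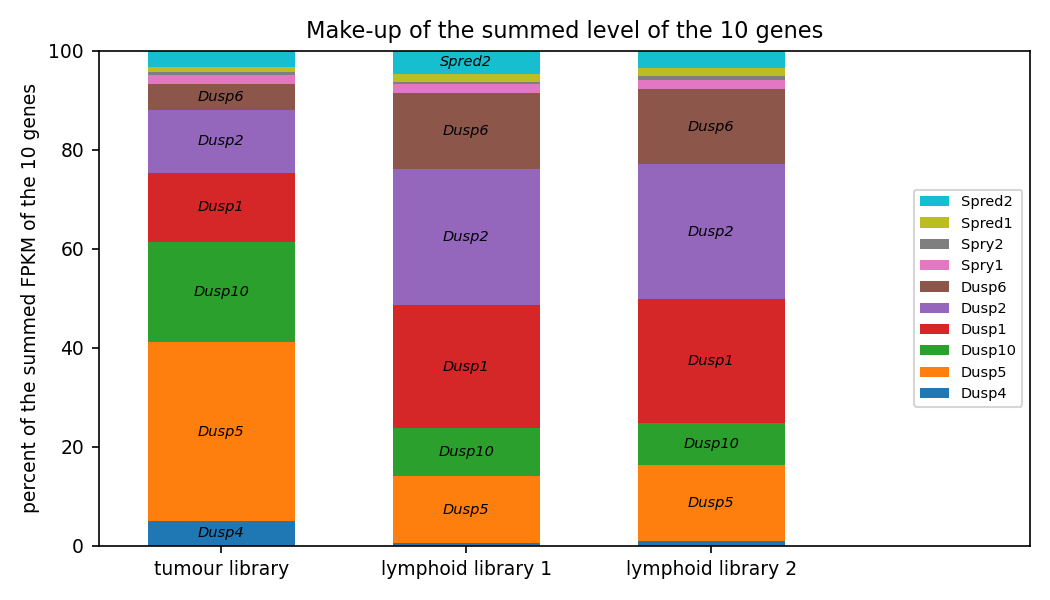
Share of each gene in the summed deposited FPKM of the 10 genes (percent), with 1 bar per library and no scaling between libraries. Dusp4, Dusp5 and Dusp10, at the bottom of each bar, make up 61.3% in the tumour library, against 23.7% and 24.9% in the lymphoid libraries.

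The Sprouty and Spred genes were low in all 3 libraries. Spry1 was at 2.53 scaled FPKM in the tumour library, against 1.46 and 1.49 in lymphoid libraries 1 and 2, and its log2 change of 0.51 with SE 0.12 missed the threshold (limma adjusted p = 0.0593). With each library's mean receptor level subtracted, that log2 change was 0.26 (limma adjusted p = 0.188). Spry2 was at 0.759 scaled FPKM in the tumour library, against 0.391 and 0.600 in lymphoid libraries 1 and 2. It rested on about 3 tumour fragments, and 13.3% of receptor rows reached its tumour level, so no difference was detectable at this depth.

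Spred1 was at 1.39 scaled FPKM in the tumour library, against 1.27 and 1.23 in lymphoid libraries 1 and 2, with a log2 change of 0.09 (limma adjusted p = 0.627). Spred2 was at 4.18 scaled FPKM in the tumour library, against 3.67 and 2.78 in lymphoid libraries 1 and 2, with a log2 change of 0.30 (limma adjusted p = 0.318). Spred2 thus stood 3.004 times as high as Spred1 in the tumour library, against 2.88 and 2.27 times in the lymphoid libraries. The other genes of these families were near or under the receptor level. Spry4 was at 0.79 scaled FPKM in the tumour library, against 0.01 and 0.02 in the lymphoid libraries, Spred3 was at 1.53 in the tumour library and listed at 0 in both lymphoid libraries, and Spry3 was listed at 0 in all 3 libraries.

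**Figure D3:**
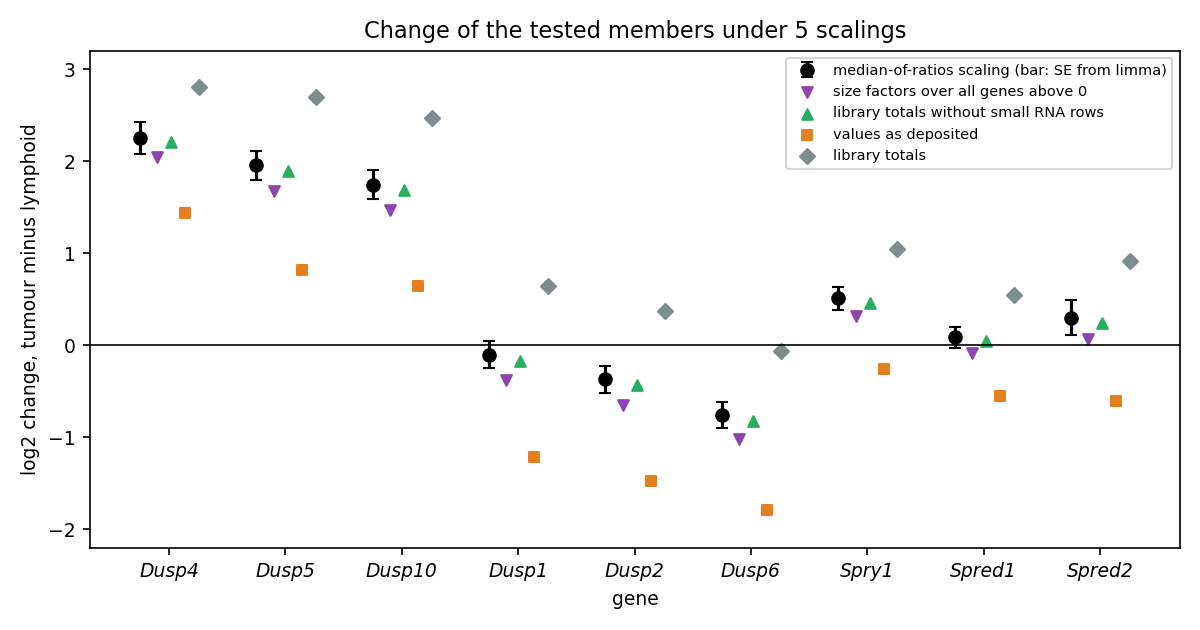
Log2 change of the 9 tested members, tumour minus lymphoid, as log2 of FPKM plus 1 after median-of-ratios scaling (black, bars show the SE from limma) and under 4 other scalings. Under all 5, Dusp4, Dusp5 and Dusp10 stay above 0 and Dusp6 stays below 0, while the other members take both signs.

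The scaling set the sign of the smaller changes. As deposited, Dusp4, Dusp5 and Dusp10 were higher as well, by log2 changes of 1.44, 0.82 and 0.65, and Dusp6 was lower by -1.78, and all 4 were called by limma there. As deposited, Dusp1 (-1.21), Dusp2 (-1.48), Spred1 (-0.55) and Spred2 (-0.61) were also called lower, in a library whose median gene was at -0.94. Relative to the median gene, and over the 5 scalings plotted, the rise of Dusp5 lay between 1.76 as deposited and 2.02 with library totals.

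Other dual-specificity phosphatases were mostly near the floor. Of 20 listed genes 8 were tested, with 2 higher and 1 lower (14.0% and 6.71% of all tested genes). Both higher genes, Dusp21 and Dusp23, had a lymphoid mean under the filter and passed it only through the tumour library, so they could only have come out higher. Dusp7, which like Dusp6 encodes a cytoplasmic ERK phosphatase, was at 3.90 scaled FPKM in the tumour library, against 7.98 and 7.13 in lymphoid libraries 1 and 2. It fell by 0.80 on the log2 scale (limma adjusted p = 0.0367, and t test adjusted p = 0.439 with counting error added). Dusp23 was at 3.05 in the tumour library, against 0.592 and 0.736 in the lymphoid libraries (log2 change 1.28). Dusp21, an atypical member, was at 4.84 in the tumour library, against 0 and 0.0648 in the lymphoid libraries. The rises of Dusp23 and Dusp21 rested on about 8 tumour fragments each and were not called with counting error added (t test adjusted p = 0.296 and 0.120). Dusp11, which encodes an RNA phosphatase and was the most abundant of this list, was at 7.56 in the tumour library, against 10.8 and 8.18 in the lymphoid libraries, and was not called. Dusp16, a JNK and p38 phosphatase gene, was below the filter at 1.62 in the tumour library, against 0.656 and 0.350 in the lymphoid libraries.

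Few differences were detectable in the RNA of the kinases that these proteins restrain. Of 31 tested genes of MAP kinases, MAP kinase kinases, RAF kinases with their scaffolds, and MAPK-activated kinases, limma called 0, against 2072 of all 10004 tested genes. At an unadjusted p under 0.05 by limma, 3 were higher and 3 lower, against 2215 and 1535 of all tested genes. As deposited, where the median of all genes lay at -0.94, the number called was 27, against 8122 of all 10004. With library totals, where that median lay at 0.68, it was 16, against 5105 of all 10004. The 31 kinase genes had log2 changes from -0.65 to 0.66 after median-of-ratios scaling. Mapk14, which encodes p38 alpha, was at 9.72 scaled FPKM in the tumour library, against 10.6 and 9.86 in lymphoid libraries 1 and 2. The most abundant genes of the MAP kinase kinase, RAF and MAPK-activated kinase lists, Map2k2, Iqgap1 (a scaffold) and Rps6ka3, had log2 changes of 0.32, -0.16 and 0.07.

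Upstream of the kinases, 1 of 12 tested genes of Ras proteins, exchange factors and adaptors was called. For this list and the next ones, the shares called among all tested genes were 14.0% higher and 6.71% lower. Rras2, a Ras-related GTPase, fell by 0.87 on the log2 scale (limma adjusted p = 0.0350), on about 9 tumour fragments. The adaptor gene Lat was at 109.7 scaled FPKM in the tumour library, against 109.3 and 107.6 in lymphoid libraries 1 and 2. Of 12 tested genes of Ras GTPase activators and other brakes, Errfi1, a feedback inhibitor of epidermal growth factor receptors, was called, at 2.76 in the tumour library, against 0.732 and 0.610 in the lymphoid libraries (log2 change 1.17), and it passed the filter only through its tumour value. The most abundant gene of that list, Rasal3, a Ras GTPase activator of blood cells, had a log2 change of -0.28 and was not called. Among 18 tested MAP3 and MAP4 kinase genes, Map3k14, which encodes the NF-kB-inducing kinase, was called, at 12.5 in the tumour library, against 5.21 and 5.99 in the lymphoid libraries (log2 change 1.03). Map4k2, the most abundant there, had a log2 change of -0.18. With counting error added, the calls of Rras2, Errfi1 and Map3k14 ended (t test adjusted p = 0.429, 0.211 and 0.149).

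Most genes of a list of ERK-responsive genes were not called. The list also holds the transcription factor genes Elk1, Elk3, Elk4, Srf and Ets1, whose induction by ERK is not assumed here. Of 23 tested genes 5 were higher (21.7%, against 14.0% of all tested genes) and 0 lower (against 6.71%). At an unadjusted p under 0.05 by limma, 7 of the list were higher and 1 lower, against 2215 and 1535 of all 10004 tested genes. The median log2 change of the list was 0.10, against 0.02 for all tested genes. The AP-1 gene Fosl2 was at 43.8 scaled FPKM in the tumour library, against 1.11 and 0.869 in lymphoid libraries 1 and 2 (log2 change 4.495), and the nuclear receptor gene Nr4a1 was at 29.0 in the tumour library, against 2.13 and 2.37 in the lymphoid libraries (log2 change 3.21). Maff, Atf3 and Hbegf, a growth factor gene, were higher by log2 changes of 1.63, 2.23 and 0.90, on about 10 to 14 tumour fragments. Of the 5 called genes, Fosl2, Maff, Atf3 and Hbegf had a lymphoid mean under 1 scaled FPKM and passed the filter only through the tumour library, and 1 call (Nr4a1) is left without them. Of the 5 calls, those of Fosl2 and Nr4a1 were left with counting error added. The early response genes Fos, at 14.1 in the tumour library, against 18.4 and 26.6 in the lymphoid libraries, and Egr1, at 9.31 in the tumour library, against 8.06 and 8.29 in the lymphoid libraries, were not called. Jun, the lowest change of the list, was at 25.1 in the tumour library, against 41.8 and 67.5 in the lymphoid libraries (log2 change -1.05, limma adjusted p = 0.103). Junb was at 99.9 in the tumour library, against 59.9 and 75.7 in the lymphoid libraries (log2 change 0.56, limma adjusted p = 0.146). Etv5, like Dusp6 a classic ERK target gene, was at 3.11 in the tumour library, against 2.42 and 2.12 in the lymphoid libraries, and was not called. Srf was at 6.43 in the tumour library, against 6.15 and 5.70 in the lymphoid libraries, with a log2 change of 0.10, and the most abundant gene of the list, Ets1, had a log2 change of 0.04. Taking all 10 pathway lists without the members, 9 genes were higher and 2 lower of 104 tested (8.65% and 1.92%, against 14.0% and 6.71% of all tested genes), and 7 of the 9 had passed the filter only through the tumour library. Their median log2 change was 0.05, against 0.30 for the 9 tested members, of which Dusp4 had passed the filter only through its tumour value.

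**Figure D4:**
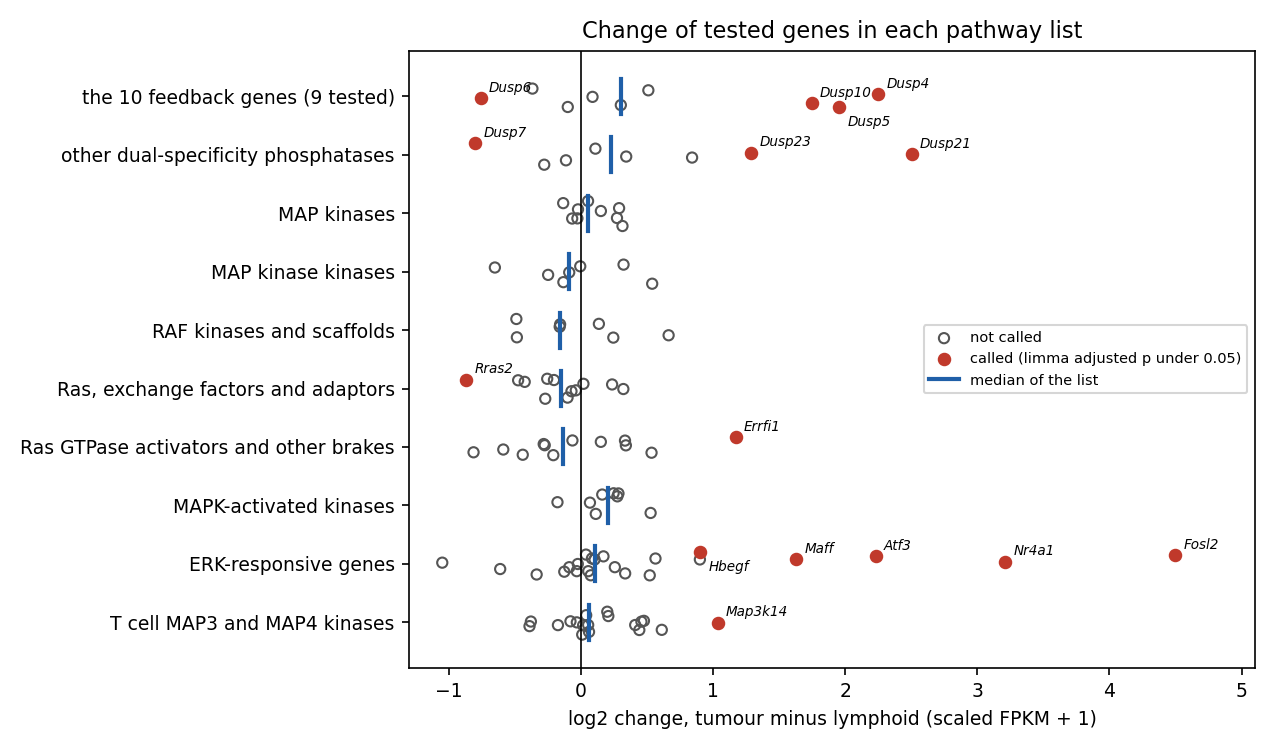
Log2 change, tumour minus lymphoid, of each tested gene (points) in the members and in 9 pathway lists with tested genes, with the median of each list as a blue line. Filled points passed limma at an adjusted p of 0.05. The 4 kinase lists hold no filled point, and the members reach from -0.76 for Dusp6 to 2.25 for Dusp4.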

How the data were processed

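The deposited values of the 3 libraries were taken as FPKM. The unit is not stated, and was inferred from the file headers and from low values that step with transcript length. Per the labels' protocols, total RNA of 300000 cells was made into stranded, ribosomal-RNA-depleted libraries and sequenced in pairs of 75 bp. The submitters' processing notes name mm10, kallisto and DESeq2, without roles or versions. For the authors' FPKM, no source used here gives the annotation or filters. For symbols in several rows the row of highest mean was kept. Symbols were joined to GENCODE M21 (GRCm38) for positions and transcript lengths, with 21666 matched directly and 1240 by an older symbol. Sequences come from RefSeq (GRCm38.p6).

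Size factors (0.579 for the tumour library and 1.29 and 1.33 for lymphoid libraries 1 and 2) were median ratios over genes above 0 in every library with a deposited mean of at least 1. Genes with a scaled mean of at least 1 were tested on log2(scaled FPKM + 1) with limma 3.58.1 (R 4.3.3), using a trended prior variance and Benjamini-Hochberg adjustment over all 10004. The fit was tested on simulated data in which every library had the spread of the lymphoid pair. The lower depth and higher receptor-row signal of the tumour library were not simulated, so that test cannot vouch for the calls. Depth was estimated from the product of FPKM and transcript length at which low genes with a single transcript most often coincide. For counting error, a variance from the estimated tumour fragments of each gene was added to limma's squared SE. The p-value was then taken from a t distribution with limma's degrees of freedom, outside limma, and adjusted by Benjamini-Hochberg over the genes with a transcript length. Members, lists and this gene set for the size factors were chosen with earlier results of these data known, and members, called genes of each list (up to 4 a direction) and its most abundant gene are named. Genes outside this rule (Dusp16, Mapk14, Hbegf, Etv5, Fos, Egr1, Jun, Junb, Srf, Spry3, Spry4 and the marker Ifng) were chosen after their values were seen. A named gene of the pathway lists is not reported here.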

Additional observations from a re-analysis of the deposited data

How the results depend on the processing

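Dusp4, Dusp5 and Dusp10 were called higher under every setting in which they were tested except with counting error added. There the adjusted p by the t test was 0.0725, 0.0573 and 0.0725. Dusp4 was not tested at a mean of at least 5. Over the alternatives, the adjusted p by limma reached down to 3.51e-30 for Dusp4, 5.13e-15 for Dusp5 and 1.94e-12 for Dusp10 (library totals), and lay between 0.00614 and 0.879 for Dusp6. The very small values with library totals came with larger SEs (0.24, 0.33 and 0.33) than as reported (0.18, 0.16 and 0.16). They rest on the same 3 libraries, in a setting that called 5105 of 10004 genes, and are not stronger evidence. The log2 change of Dusp4, 2.25 as reported, was 1.04 with a pseudocount of 5 and 3.31 with 0.1. Spry1 was also called higher with library totals, a pseudocount of 5 and no filter. Members called higher numbered 3 as reported, 6 with library totals and 0 with counting error. Members called lower numbered 1 as reported, 5 as deposited, 2 with size factors over all genes above 0 (chosen after seeing the data) and 0 with library totals, at a mean of at least 5 or with counting error. Among all genes, 1401 higher calls became 713 as deposited, 4832 with library totals, 7364 with no filter, 277 at a mean of at least 5 and 50 with counting error. The 671 lower calls became 7409 as deposited, 273 with library totals, 190 at a mean of at least 5 and 1400 with size factors over all genes above 0. They became 1179 with receptor background subtracted (chosen after seeing the data) and 0 with counting error (308 at an unadjusted p under 0.05 by the t test). Higher calls were 67.6% of all calls as reported, 8.78% as deposited, 94.7% with library totals, 42.6% with size factors over all genes above 0, 46.4% with receptor background subtracted and 90.3% with no filter. Without a test, 1480 genes were higher and 800 lower at 1.5-fold, against 870 and 257 at 2-fold, and 1 member (Dusp6) was lower at 1.5-fold against 0. Direction turned for Dusp1 (0.64) and Dusp2 (0.37) with library totals, for Spry1 (-0.26), Spred1 (-0.55) and Spred2 (-0.61) as deposited, for Spred1 (-0.079) with size factors over all genes above 0, and for Spred1 (-0.33) with background subtracted. The median log2 change of all genes was 0.02 as reported, -0.94 as deposited, 0.68 with library totals, -0.23 with size factors over all genes above 0, -0.12 with background subtracted and 0.21 with no filter, and the cause of the changed calls was not tested. Without either lymphoid library, which leaves no test, the 2-fold counts were 959 to 975 genes higher and 353 to 357 lower, with 3 members higher and 0 lower each time, and the log2 changes were 1.87 to 2.03 for Dusp5, 2.10 to 2.40 for Dusp4, 1.66 to 1.83 for Dusp10 and -0.77 to -0.75 for Dusp6. No paired analysis was possible because the tumour group has 1 library. Depth limits the low members: the median tested gene rested on 19.5 estimated tumour fragments, and 28.8% on fewer than 10.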

Other observations

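The 5 tested genes whose 3 values lay nearest to those of Dusp4, by Euclidean distance of centred log2 values over the 3 libraries, were Gm8267, Stra8, Obox3, Gm13399 and 1700081H04Rik, at distances of 0.060 to 0.092. Stra8, a germ cell gene, was at 5.39 scaled FPKM in the tumour library, against 0.264 and 0.585 in lymphoid libraries 1 and 2. Obox3, an oocyte homeobox gene, was at 4.93 in the tumour library, against 0.0864 and 0.439 in lymphoid libraries 1 and 2. Likeness over 3 libraries is a description only, and the part of the receptor-row signal of the tumour library in these values was not tested.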
